A study of Mus musculus with 13 samples.

Results

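A set of 10 mouse genes for integrin subunits found outside hemidesmosomes, Itga2, Itga3, Itga5, Itga7, Itgav, Itgb1, Itgb3, Itgb5, Itgb6 and Itgb8, were followed in RNA-seq of mammary tumour cell lines. They were taken by gene symbol, and all 10 were found among the 23845 genes of the deposited tables. The study addressed the role of the c-Jun N-terminal kinases (JNK) in HER2-driven breast cancer. It compared 6 lines labelled wild type (WT) with 7 lines labelled JNK knockout, all from mammary gland tumours of FVBN/J mice. The labels leave out which JNK genes or exons were removed, by which means or in which cells, how HER2 was driven in the tumours, and the age of the mice. Both groups had the same culture, on collagen I with 2% serum for 2 passages, then on standard dishes with 10% serum, 20 ng/ml EGF and 10 µg/ml insulin. Each sample is a separate line, numbered here as replicate 1 to 6 or 1 to 7 within its group. The titles of WT replicates 4 and 5 share a number, and the labels do not say whether they came from 1 animal. The tests judge the group difference against the variation between lines. They treat WT replicates 4 and 5 as independent, which lines from 1 animal would not be. Titles start with different letters in the groups, and a difference of colony or handling tied to that cannot be told apart from the genotype.

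Integrins are transmembrane receptors made of an alpha and a beta subunit, and the pair decides which matrix protein is bound. Beta 1 joins many alpha subunits, among them alpha 2 for collagen, alpha 3 and alpha 7 for laminin and alpha 5 for fibronectin. Alpha v joins beta 1, beta 3, beta 5, beta 6 or beta 8, and these receptors read the RGD motif of vitronectin, fibronectin and the latency peptide of TGF-β. Inside the cell talin and kindlin bind the beta tail, and focal adhesion kinase and its adaptors carry the signal on. In the mammary gland beta 1 integrins anchor epithelium to its basement membrane. JNK phosphorylates c-Jun, a part of AP-1, so the stretch before a gene's start was read for AP-1 letters where it was available.

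The 250 bases before the start of a gene in RefSeq (GRCm38.p6) were available for 8 of the 10 genes, with 10 starts in all. Itga7 and Itgb3, the 2 subunits called lower below, had no such stretch, so the motif counts do not cover them. The AP-1 motif TGANTCA, read on both strands, was in 0 of the 10 stretches and in 6.75% of 32851 promoters of that length. The ATF/CRE motif TGACGTCA, also read on both strands, was in 0 of 10 and in 1.55% of all promoters, and its letters do not contain the AP-1 motif. The GC box GGGCGG, on either strand, was in 5 of 10 stretches (both starts of Itga3, and Itga5, Itgb1 and Itgb5) and in 32.7% of all promoters. A set of 3 stretches is printed to show beta subunit genes with a GC box and 1 without it. They are those of Itgb1 (chr8:128685404-128685653, plus strand), of Itgb5 (chr16:33829415-33829664, plus strand) and of the upstream start of Itgb6 (chr2:60722604-60722853, minus strand), and capitals mark GC boxes.
Itgb1: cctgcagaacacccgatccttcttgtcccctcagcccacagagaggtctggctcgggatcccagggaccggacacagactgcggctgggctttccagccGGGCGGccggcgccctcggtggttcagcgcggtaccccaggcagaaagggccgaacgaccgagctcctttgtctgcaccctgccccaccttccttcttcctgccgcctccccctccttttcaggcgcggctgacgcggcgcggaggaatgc
Itgb5: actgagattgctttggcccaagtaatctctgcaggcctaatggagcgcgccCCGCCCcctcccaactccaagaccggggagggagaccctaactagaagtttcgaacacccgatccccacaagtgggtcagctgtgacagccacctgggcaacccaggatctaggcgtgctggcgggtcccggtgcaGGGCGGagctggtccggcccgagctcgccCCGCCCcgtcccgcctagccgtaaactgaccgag
Itgb6: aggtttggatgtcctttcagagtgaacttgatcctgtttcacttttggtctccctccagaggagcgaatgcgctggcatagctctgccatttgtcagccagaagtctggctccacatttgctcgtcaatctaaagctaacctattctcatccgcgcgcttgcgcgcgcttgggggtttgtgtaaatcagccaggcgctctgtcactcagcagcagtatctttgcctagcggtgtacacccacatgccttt
These stretches hold 68.0% G and C for Itgb1, 65.2% for Itgb5 and 52.0% for Itgb6, beside a median of 52.4% over all promoters. Itgb5 has 3 GC boxes, Itgb1 has 1 and Itgb6 has none. A match of letters describes the window and shows no bound factor.

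Libraries held between 38298602 and 46689809 expected counts, and every one of the 10 genes passed the filter on low counts. The JNK1 gene Mapk8 was 29.8 ± 5.38 CPM (counts scaled to a common library size) in WT lines (SD, n = 6) against 5.76 ± 1.32 CPM in knockout lines (SD, n = 7). The JNK2 gene Mapk9 was 60.0 ± 6.59 CPM in WT lines against 19.3 ± 5.11 CPM in knockout lines. The groups did not overlap for either gene. Erbb2, the HER2 gene, was 212.1 ± 29.4 CPM in WT against 131.1 ± 55.6 CPM in knockout lines, which did not pass the edgeR test (adjusted p = 0.10). Epithelial markers stood at 5758 to 7533 summed TPM (transcripts scaled for length to a common sum) in WT and 1141 to 3589 in knockout lines. Of the 6 markers 0 were higher and 2 lower, Krt18 (log2 fold change -1.26, adjusted p = 0.0026) and Krt8 (-0.97, adjusted p = 0.047), the latter called in 3 of 13 fits that left a line out, while Krt19 had no read in 3 WT lines. Knockout replicate 2 had the lowest Epcam (40.8 CPM) and Cdh1 (92.3 CPM) and the highest Vim (4042 CPM). In WT replicate 3 Col1a1 reached 183.5 CPM, against at most 9.46 CPM in the other lines. Both lines are named below wherever a value rests on them. The markers of other cells, and their part in the results, are given after the integrins.

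In the knockout lines 2 of the 10 subunits were lower, the laminin receptor chain Itga7 and the vitronectin receptor chain Itgb3, and 0 were higher. This is set against 4.17% of all 13058 tested genes called lower and 4.33% called higher (8.51% in either direction), by edgeR's quasi-likelihood F test with an adjusted p under 0.05. The log2 fold change (knockout minus WT) was below 0 for 9 of the 10 subunits, with a median of -0.85. Over all tested genes the median was 0.01, and 49.4% were below 0. That share was larger among genes with long transcripts, as given below. The exception was Itgb6, whose value turned below 0 in fits on TPM, and the value of Itga5 turned above 0 when any 1 of 5 lines was left out. For none of the 10 did the groups separate completely, while 1.97% of all tested genes were lower and 2.08% higher with no overlap. Without WT replicate 3 and knockout replicate 2 a further subunit, Itgb1, also passed, which made 3. Reads come from whole cultures, so fewer cells of a kind and less RNA per cell cannot be told apart.

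**Figure D1:**
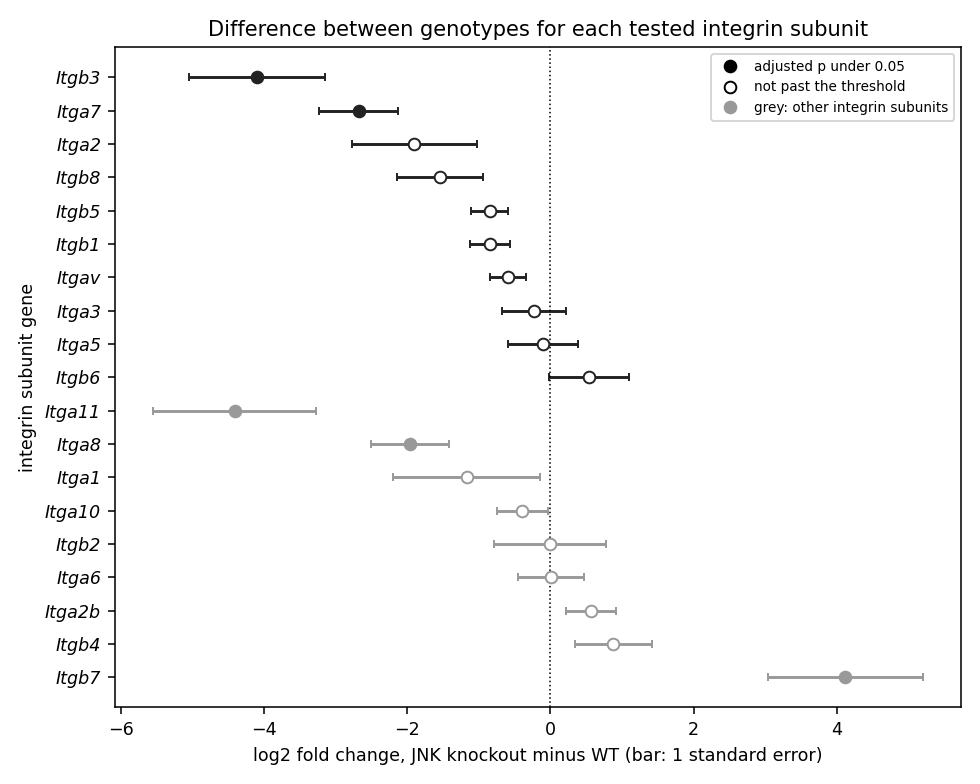
Log2 fold change (knockout minus WT, x axis) of the 10 integrin subunits and of the other tested integrin subunits (grey), with bars of 1 SE and filled points for an adjusted p under 0.05. Itga7 at -2.68 and Itgb3 at -4.10 are the filled points among the 10, and Itgb6 at 0.54 is the member to the right of 0.

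Itgb1 encodes beta 1, the common partner of the alpha 2, 3, 5 and 7 chains (chr8:128685654-128733579). It ran from 876.1 to 1651 CPM in WT lines, with a median of 1108, and from 418.1 to 1299 CPM in knockout lines, with a median of 612.1. Below every WT line lay 5 of the 7 knockout lines, and knockout replicates 2 and 3 lay within the WT range. The mean was 1221 ± 316.4 CPM in WT (SD, n = 6) against 679.0 ± 322.1 CPM in knockout lines (SD, n = 7). The log2 fold change was -0.85 (SE 0.28) and did not pass the test (adjusted p = 0.074 by edgeR). Without knockout replicate 2, the line with the highest Vim, it was -1.08 and passed (adjusted p = 0.015).

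Itga3 encodes alpha 3, a receptor chain for laminin-332 and laminin-511 of the basement membrane (chr11:95044475-95076844). It ran from 375.9 to 1494 CPM in WT lines (median 1133) and from 260.6 to 1354 CPM in knockout lines (median 1104). The ranges overlapped nearly whole. Knockout replicates 5, 6 and 7 were at 371.6, 371.1 and 260.6 CPM, below every WT line, while the other 4 were at 1104 CPM or more. The log2 fold change was -0.23 (SE 0.45, adjusted p = 0.78), so a difference between the groups was not detectable over the spread between lines.

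Itga7 encodes alpha 7, a laminin receptor chain best known from skeletal muscle (chr10:128933421-128958286). In WT replicates 1 to 6 it was 14.0, 35.5, 15.0, 7.79, 37.3 and 22.1 CPM. In knockout replicates 1 to 7 it was 1.80, 4.06, 5.34, 1.35, 2.46, 8.22 and 0.755 CPM. Below every WT line lay 6 of the 7 knockout lines, and the groups met only at WT replicate 4 and knockout replicate 6. The mean fell from 21.9 ± 12.1 CPM to 3.43 ± 2.65 CPM, which is -2.68 in log2 fold change (SE 0.55, adjusted p = 0.012). The call held without each line in turn, with adjusted p between 0.0070 and 0.028. The gene overlaps the antisense gene Mettl7b, which had 45 to 127 reads in WT and 5 to 36 in knockout lines, against 354 to 1828 and 34 to 380 reads of Itga7. The labels do not state whether counting used strand, so reads of the pair may be shared.

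Itga2 encodes alpha 2, a receptor chain for collagen (chr13:114833081-114932100). It ran from 3.61 to 165.3 CPM in WT lines (median 76.6) and from 1.08 to 64.7 CPM in knockout lines (median 19.2). Of the 6 WT lines 4 lay above every knockout line, but WT replicate 3 at 3.61 CPM was lower than all knockout lines but replicate 5. The highest level was 45.8 times the lowest among WT lines and 59.8 times among knockout lines. Its log2 fold change of -1.90 (SE 0.87) did not pass the test (adjusted p = 0.18).

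Itga5 encodes alpha 5, the chain of the classical fibronectin receptor (chr15:103344286-103366791). It ran from 19.0 to 70.5 CPM in WT lines (median 54.0) and from 16.5 to 128.2 CPM in knockout lines (median 27.7). The highest value belonged to knockout replicate 2, and the WT range held 5 of the 7 knockout lines. Its log2 fold change was -0.10 (SE 0.49, adjusted p = 0.92). Its sign turned when any 1 of 5 lines was left out, and it was -0.63 without knockout replicate 2.

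**Figure D2:**
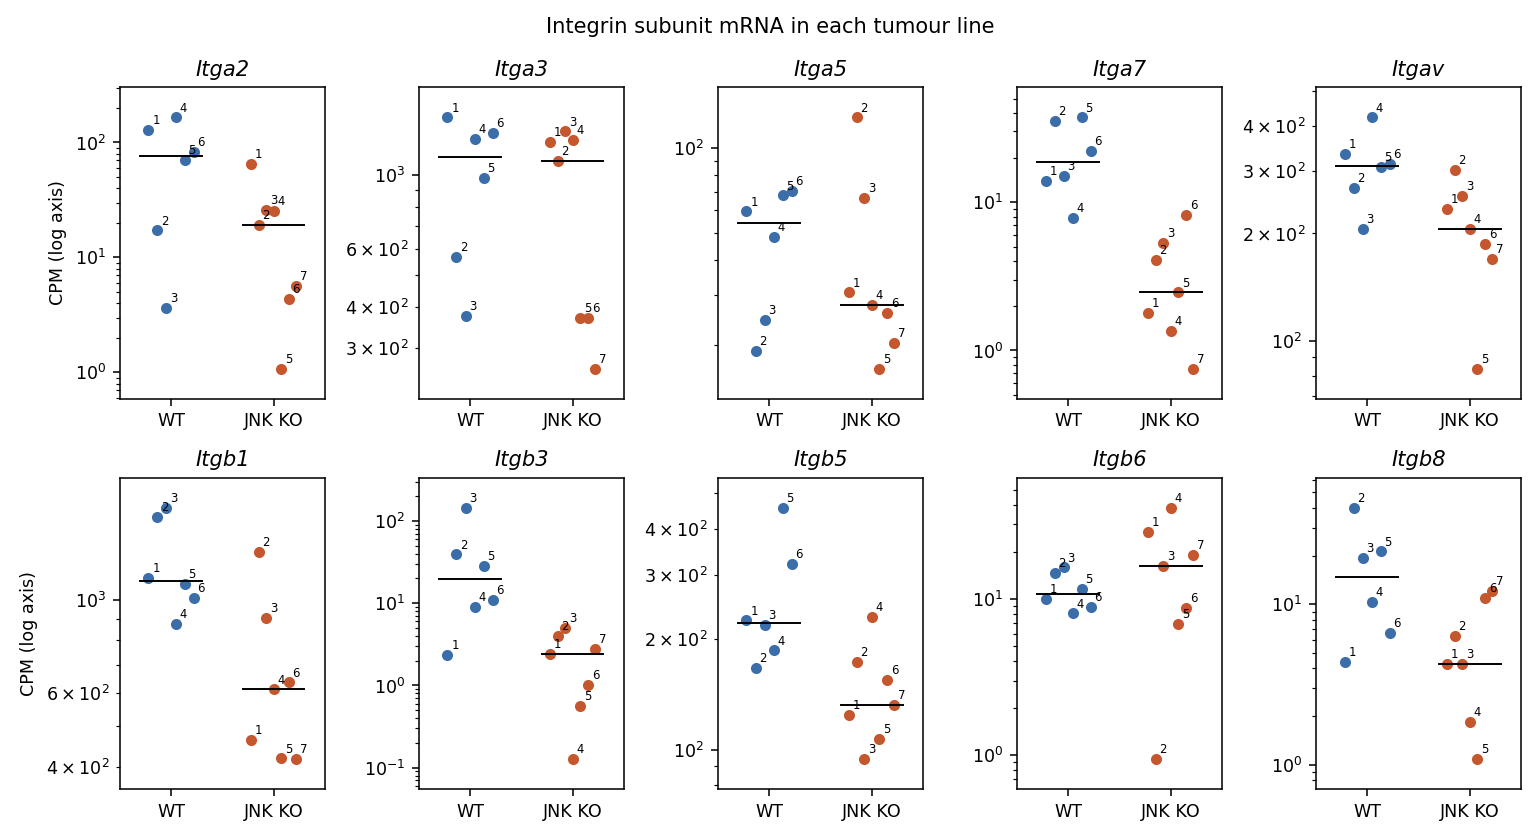
Level of each of the 10 subunits in CPM (log y axis) in 6 WT and 7 JNK knockout lines, 1 dot per line numbered by replicate, with a bar at the median. Itga7 and Itgb3 meet in few lines, Itga3 and Itga5 overlap over most of their ranges, and Itgb6 spreads from 0.943 to 38.2 CPM in knockout lines against 8.08 to 15.9 CPM in WT lines.

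Itgav encodes alpha v, the shared chain of the RGD receptors (chr2:83722303-83806917). It was among the steadiest of the 10 genes, from 206.0 to 422.7 CPM in WT lines (median 309.8) and from 83.7 to 300.7 CPM in knockout lines (median 205.9). Of the WT lines 4 lay above every knockout line, and 4 knockout lines below every WT line. With a log2 fold change of -0.59 (SE 0.25) it did not pass the test (adjusted p = 0.15).

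Itgb3 encodes beta 3, which forms a vitronectin receptor with alpha v (chr11:104608000-104670476). In WT replicates 1 to 6 it was 2.36, 39.2, 143.8, 8.98, 28.6 and 10.9 CPM. In knockout replicates 1 to 7 it was 2.42, 4.01, 4.98, 0.127, 0.568, 1.02 and 2.77 CPM. Above every knockout line lay 5 of the 6 WT lines, and WT replicate 1 lay among the knockout lines. The mean fell from 39.0 ± 53.1 CPM to 2.27 ± 1.81 CPM, which is -4.10 in log2 fold change (SE 0.95, adjusted p = 0.020). Without WT replicate 3, the line with the highest Itgb3 and Col1a1, the log2 fold change was -2.98 (adjusted p = 0.044). By limma-voom it was -3.64 and did not pass (adjusted p = 0.11). The platelet partner of beta 3, Itga2b, was between 1.02 and 3.44 CPM in all lines.

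Itgb5 encodes beta 5, another vitronectin receptor chain (chr16:33829665-33949338). It ran from 167.3 to 455.4 CPM in WT lines (median 222.0) and from 94.2 to 229.8 CPM in knockout lines (median 132.3). Below every WT line lay 5 of the 7 knockout lines, and replicates 2 and 4 lay within the WT range. The log2 fold change of -0.85 (SE 0.26) did not pass the test (adjusted p = 0.058). It passed without WT replicate 2 (-0.96, adjusted p = 0.046) or without knockout replicate 4 (-1.0, adjusted p = 0.032).

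Itgb6 encodes beta 6, an epithelial chain that with alpha v binds latent TGF-β (chr2:60598292-60722603). It kept within 8.08 to 15.9 CPM in WT lines (median 10.8) but ran from 0.943 to 38.2 CPM in knockout lines (median 16.2). Of the 7 knockout lines 4 lay above every WT line and 2 lay below every WT line, with knockout replicate 2 at the bottom. The highest level was 1.96 times the lowest among WT lines and 40.5 times among knockout lines. At a log2 fold change of 0.54 (SE 0.56) it did not pass the test (adjusted p = 0.58).

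Itgb8 encodes beta 8, another chain that with alpha v binds latent TGF-β (chr12:119162803-119238276). It ran from 4.39 to 39.9 CPM in WT lines (median 14.9) and from 1.08 to 12.1 CPM in knockout lines (median 4.26). Of the 6 WT lines 3 lay above every knockout line and 4 knockout lines below every WT line. Itgb8 had a log2 fold change of -1.54 (SE 0.60) and did not pass the test (adjusted p = 0.12).

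Levels of different genes were set side by side in TPM, which are scaled for transcript length. In WT lines beta 1 was highest at 534.5 ± 126.6 TPM, followed by Itga3 at 383.8 ± 177.5, Itgb5 at 150.0 ± 64.3 and Itgav at 79.4 ± 20.8 TPM. Itga2 (34.8 ± 28.3 TPM) and Itga5 (20.5 ± 9.50 TPM) came next. Itgb3, Itgb8 and Itga7 had means between 10.1 and 11.8 TPM, and Itgb6 was lowest at 4.39 ± 1.12 TPM. Among neighbours in this order, a mean log2 ratio larger than its SD over lines was found for Itga3 over Itgb5, Itgb5 over Itgav, Itgav over Itga2, and Itga7 over Itgb6. Beta 1 and Itga3 did not differ beyond their spread, since beta 1 was the higher in 3 of 6 WT lines. The same holds for each neighbouring pair from Itga2 down to Itga7.

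In knockout lines Itga3 (285.5 ± 177.1 TPM) and Itgb1 (260.4 ± 131.1 TPM) again led and did not differ beyond their spread. Itgb5 (72.2 ± 28.0 TPM), Itgav (46.2 ± 17.4 TPM) and Itga5 (16.6 ± 14.8 TPM) followed, and each step from Itgb1 to Itga5 was larger than its spread. Below them no neighbours differed beyond their spread, from Itga2 (8.15 ± 8.43 TPM), Itgb6 (5.68 ± 4.61 TPM) and Itgb8 (3.15 ± 2.35 TPM) to Itga7 (1.39 ± 1.17 TPM) and Itgb3 (0.627 ± 0.517 TPM). By its mean Itgb3 stood at rank 7 in WT and rank 10 in knockout lines, but without WT replicate 3 its WT mean was 5.74 ± 4.91 TPM (SD, n = 5), at rank 9. The summed level of the 10 genes was 1043 to 1434 TPM in WT lines and 260.2 to 1061 TPM in knockout lines. The lowest sums were those of knockout replicates 5 (260.2 TPM) and 7 (367.5 TPM). Between lines these sums depend on the unit. Itga3 was 371.6 CPM but 87.0 TPM in knockout replicate 5, and 371.1 CPM but 130.5 TPM in knockout replicate 6. The sums are therefore a description in TPM only.

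Within the beta chains other than beta 1 that pair with alpha v, beta 5 held most of the summed TPM in both groups, 84.2% ± 12.8 in WT (SD, n = 6) and 88.4% ± 5.02 in knockout lines (SD, n = 7). The share of Itgb3 was 6.80% ± 8.94 in WT, up to 24.1% in replicate 3, and 0.875% ± 0.808 in knockout lines. That of Itgb6 was 2.68% ± 0.946 in WT and 6.80% ± 4.25 in knockout lines, from 0.345% in replicate 2 to 12.1% in replicate 1. That of Itgb8 was 6.30% ± 5.81 in WT and 3.92% ± 2.73 in knockout lines. Among the alpha chains that join beta 1 alone, Itga3 held 85.8% ± 2.18 in WT and 91.4% ± 3.03 in knockout lines. Itga7 held 3.02% ± 2.33 and 0.659% ± 0.804, and Itga2 6.37% ± 4.06 and 2.18% ± 1.61. The summed TPM of these 4 alpha genes over that of Itgb1 ran from 0.221 to 1.51 in WT lines and from 0.559 to 2.53 in knockout lines. These shares are given as a description, without a test, and messages are no measure of receptor pairs at the surface.

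**Figure D3:**
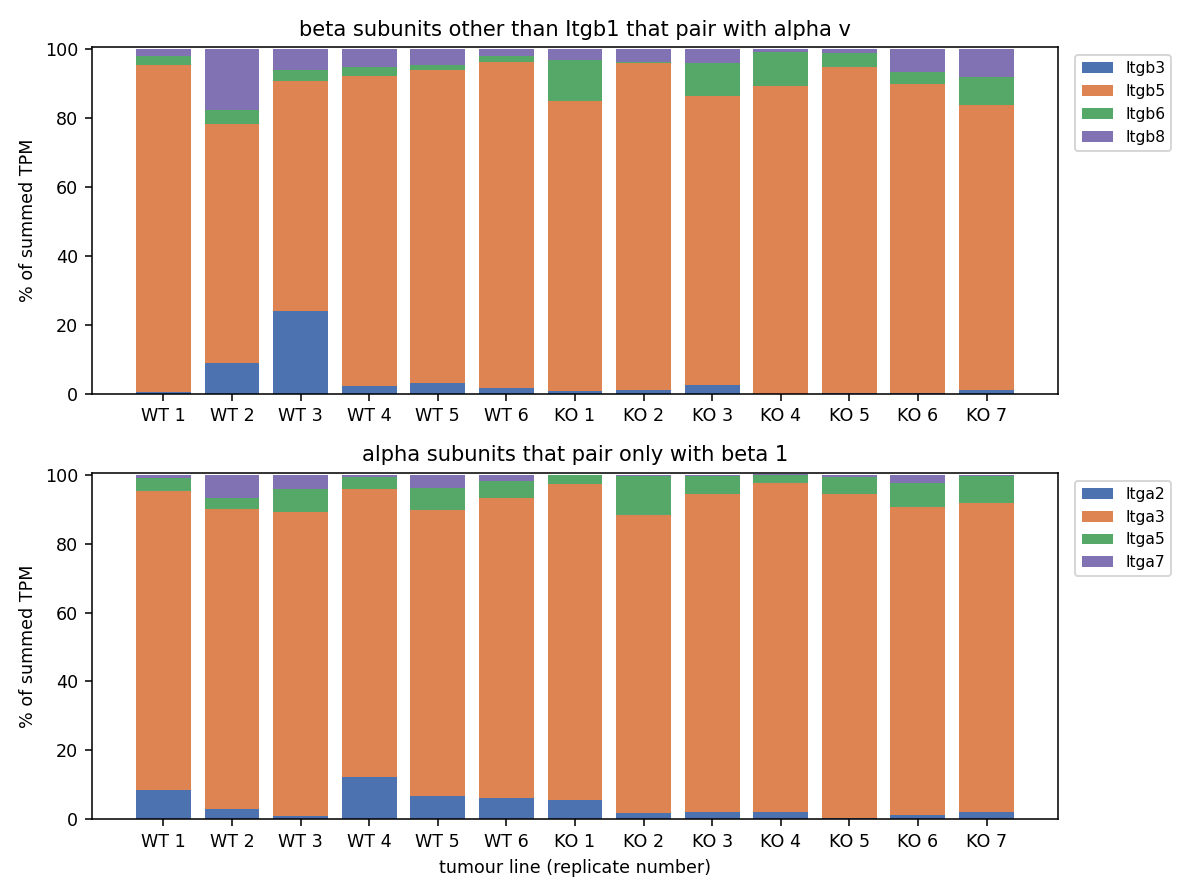
Share of summed TPM (percent, y axis) of the beta chains other than beta 1 that join alpha v and of the alpha chains that join beta 1 alone, as stacked bars for each of the 13 lines. Beta 5 and alpha 3 fill most of every bar, beta 3 reaches 24.1% in WT replicate 3, and beta 6 reaches 12.1% in knockout replicate 1.

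The 10 genes differed in how they varied across lines. The SD of log2 CPM over the 13 lines ran from 0.58 for Itgav, 0.63 for Itgb5 and 0.69 for Itgb1 to 2.20 for Itga2 and 2.60 for Itgb3. By the mean absolute difference of standardised log2 CPM over the 13 lines, in SD, the closest pairs were Itga2 with Itgav (0.391), Itga2 with Itga3 (0.414), Itgb3 with Itgb8 (0.486) and Itga7 with Itgb1 (0.493). Itga2 and Itga3 lay below their own means in WT replicates 2 and 3, where Itgb1, Itgb3 and Itgb8 lay above theirs. Lines share depth and culture, so these distances are a description.

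**Figure D4:**
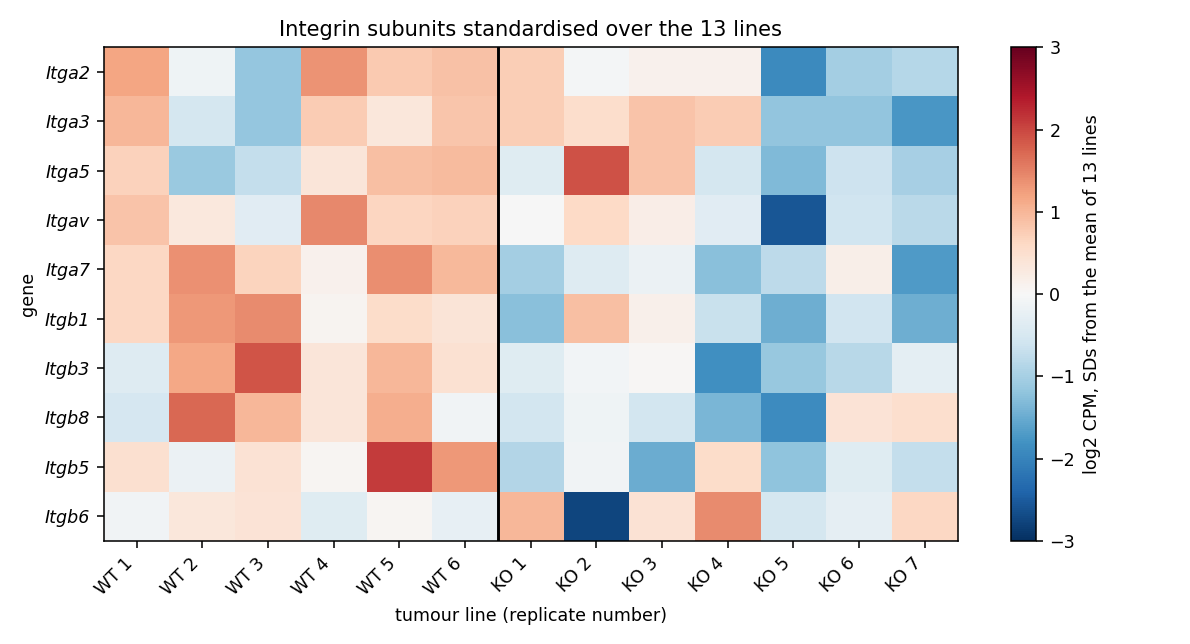
Log2 CPM of the 10 subunits standardised over 13 lines (colour, in SD from the gene's mean), with genes in rows and WT and knockout lines in columns. Itgb3 is highest in WT replicate 3 (1.89 SD) where Itga2 is at -1.15 SD, Itgav is lowest in knockout replicate 5 (-2.57 SD), and Itgb6 is lowest in knockout replicate 2 (-2.76 SD).

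Among 10315 genes with a mean of at least 5 CPM, the most like Itga7 by this measure were Swap70 (0.308 SD) and Tpbg (0.312 SD). The most like Itgb3 were Phactr1 (0.268 SD) and Zswim6 (0.269 SD). Swap70 was 139.4 ± 25.4 CPM in WT against 67.7 ± 21.2 CPM in knockout lines, and Zswim6 was 43.7 ± 12.8 and 24.5 ± 6.81 CPM. Tpbg was at a log2 fold change of -0.56. Phactr1 was 38.9 ± 31.6 CPM in WT against 1.33 ± 1.23 CPM in knockout lines, and like Itgb3 it was lowest among WT lines in replicate 1 (1.77 CPM) and highest in replicate 3 (88.9 CPM). All 4 genes were lower in knockout lines (adjusted p between 0.0079 and 0.036 by edgeR), which their choice by likeness favours. By limma-voom Phactr1 did not pass (adjusted p = 0.076). When a line was left out in turn, Tpbg and Zswim6 each kept the call in 4 of 13 fits.

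Of 17 other integrin subunits 9 could be tested, and 1 was higher and 2 lower, with 5 below 0 and a median log2 fold change of -0.01. Itga8, whose product joins beta 1, was 158.5 ± 152.6 CPM in WT, with replicate 3 at 467.2 CPM, against 40.8 ± 25.9 CPM in knockout lines (log2 -1.96, SE 0.54, adjusted p = 0.040). Itga11, a collagen receptor chain, was 4.37 ± 4.80 CPM in WT, with replicate 3 at 13.6 CPM, against 0.202 ± 0.187 CPM in knockout lines (-4.41, SE 1.14, adjusted p = 0.032). Itgb7, known from leukocytes, was 0.155 ± 0.105 CPM in WT against 2.76 ± 4.65 CPM in knockout lines, with replicate 2 at 13.2 CPM (4.12, SE 1.08, adjusted p = 0.034). None of these calls held without each line in turn: Itga8 and Itga11 kept theirs in 6 of 13 and Itgb7 in 7 of 13 such fits. Itga11 had 0 to 23 reads in each knockout line and Itgb7 0 to 11 reads in each WT line. Both fitted folds therefore rest on few reads. Without WT replicate 3 and knockout replicate 2 together, 0 were lower. The hemidesmosome chains Itga6 (0.01, SE 0.46, adjusted p = 1.0) and Itgb4 (0.88, SE 0.54, adjusted p = 0.32) did not pass.

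The ligands of these receptors were described by list. Of 16 listed RGD ligands 14 were found by symbol, and Vtn, Ibsp, Ccn1 and Ccn2 were not tested. Of the 12 tested 0 passed, with 10 below 0 and a median log2 fold change of -0.64. The smallest p was that of Mfge8, a secreted bridge for alpha v receptors (-1.64, SE 0.69, adjusted p = 0.15), whose WT mean rested on replicate 3 at 4511 CPM and which was at -0.11 without it. Of 8 tested latent TGF-β genes 1 was lower and 0 higher, with 5 below 0 and a median of -0.93. That gene was Ltbp3, which tethers latent TGF-β to matrix, at 671.1 ± 198.8 CPM in WT against 289.7 ± 60.2 CPM in knockout lines (-1.21, SE 0.20, adjusted p = 0.0045), with no overlap. Of 9 tested laminin genes 1 was higher and 0 lower, with 5 below 0 and a median of -0.29. Lama3, the alpha chain of laminin-332 and so of an alpha 3 ligand, was 2.46 ± 1.99 CPM in WT against 46.2 ± 41.1 CPM in knockout lines (4.23, SE 0.94, adjusted p = 0.017). For Lama3, 6 of the 7 knockout lines lay above every WT line, but limma-voom did not call it (adjusted p = 0.15). Without WT replicate 3 and knockout replicate 2 together, 1 RGD ligand and 2 latent TGF-β genes were lower.

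Of 10 tested collagen genes 1 was higher and 2 lower, with 9 below 0 and a median of -1.26. Col1a2 was 30.0 ± 63.8 CPM in WT against 0.282 ± 0.201 CPM in knockout lines (log2 -6.72, SE 1.40, adjusted p = 0.013), and Col1a1 35.9 ± 72.4 and 1.70 ± 1.12 CPM (-4.40, SE 1.05, adjusted p = 0.023). Both fibril collagens rested in size on WT replicate 3. Without it Col1a2 was at -3.80 and passed (adjusted p = 0.020), and Col1a1 at -1.91 and did not (adjusted p = 0.053). Nor did Col1a1 pass without knockout replicate 1 or 7. Neither gene passed by limma-voom (adjusted p = 0.16 for both) or by limma on log2(TPM + 1), where Col1a2 had an adjusted p of 0.13. DESeq2's test gave neither gene an adjusted p, and the stricter filter left Col1a2 out. Knockout lines had 3 to 24 Col1a2 reads each, so its fold rests on few reads. Col2a1, the cartilage collagen, was 0.441 ± 0.343 CPM in WT against 3.09 ± 2.58 CPM in knockout lines (2.80, SE 0.65, adjusted p = 0.020), and did not pass by limma on log2(TPM + 1) (adjusted p = 0.064). With WT replicate 3 and knockout replicate 2 left out, 1 collagen gene was higher and 3 lower.

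Of 15 talin and kindlin activation genes, all tested, 2 were lower and 0 higher, with 11 below 0 and a median log2 fold change of -0.19. Apbb1ip, whose product RIAM brings talin to the integrin tail, was 5.58 ± 3.78 CPM in WT against 0.263 ± 0.419 CPM in knockout lines (-4.39, SE 1.00, adjusted p = 0.019), with no overlap. Knockout lines had 0 to 49 Apbb1ip reads each, so the fitted fold rests on few reads. Fermt1, the kindlin of epithelia, was 77.7 ± 35.4 CPM in WT against 32.2 ± 10.5 CPM in knockout lines (-1.27, SE 0.30, adjusted p = 0.021). Of 16 tested kinase and adaptor genes next to integrins 2 were lower and 0 higher, with 15 below 0 and a median of -0.24. Ptk2, which encodes focal adhesion kinase, was 138.9 ± 22.7 CPM in WT against 66.1 ± 19.7 CPM in knockout lines (-1.07, SE 0.20, adjusted p = 0.0082), with no overlap. Lims1, which encodes the adaptor PINCH1, was 225.1 ± 63.8 and 131.4 ± 31.1 CPM (-0.78, SE 0.19, adjusted p = 0.027), and did not pass without knockout replicate 1 or 7. With WT replicate 3 and knockout replicate 2 both left out, 4 genes of that list were lower.

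Of 12 tested lateral partners of integrins in the membrane 1 was higher and 1 lower, with 8 below 0 and a median log2 fold change of -0.24. Cav1, the caveolin that scaffolds caveolae, was 186.5 ± 65.5 CPM in WT against 615.9 ± 409.0 CPM in knockout lines (1.72, SE 0.40, adjusted p = 0.020). Cd47, which binds alpha v beta 3 at the membrane, was 57.1 ± 12.7 and 31.6 ± 7.89 CPM (-0.85, SE 0.21, adjusted p = 0.023), and did not pass without WT replicate 1. Of 16 tested integrin trafficking genes 2 were higher and 2 lower, with 7 below 0 and a median of 0.07. Clic3, which returns integrins from lysosomes, was 0.018 ± 0.021 CPM in WT against 0.894 ± 0.614 CPM in knockout lines (adjusted p = 0.0028), so the fitted fold rests on very few WT reads. Acap1, an ARF6 GTPase-activating protein in beta 1 recycling, was 2.03 ± 1.96 and 0.122 ± 0.0667 CPM (-4.01, SE 0.68, adjusted p = 0.0055). Each knockout line had only 2 to 8 Acap1 reads, so this fold also rests on few reads. Pak1, a kinase downstream of Rac, was 142.2 ± 54.2 and 56.2 ± 22.5 CPM (-1.34, SE 0.28, adjusted p = 0.014). The groups did not overlap for Clic3, Acap1 and Pak1. The remaining call, Gipc1, named after its value was seen, was 83.5 ± 12.9 CPM in WT against 118.4 ± 22.8 CPM in knockout lines (0.50, SE 0.15, adjusted p = 0.048). It kept that call in 6 of 23 other settings, and in 3 of 13 fits with a line left out. Without WT replicate 3 and knockout replicate 2 together, 1 trafficking gene was higher and 3 lower, and 1 lateral partner was higher and 2 lower.

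Markers of other cells were read beside these counts, and their part in the integrin values was not tested. Summed mesenchymal markers were 134.0 to 689.0 TPM in WT and 57.0 to 3849 TPM in knockout lines, with the top value in replicate 2. In knockout replicate 2 Vim (4042 CPM), Zeb1 (80 CPM) and Zeb2 (50 CPM) were the highest of all lines. Its Cdh2 (56.7 CPM) and Snai2 (20.1 CPM) were not, and its Twist1 (7.86 CPM) lay below every WT line. Of the 6 mesenchymal markers 0 passed the edgeR test. Cdh2 among them was at -1.95 (adjusted p = 0.21). Summed fibroblast markers were 4.32 to 108.1 TPM in WT, highest in replicate 3, and 0.71 to 15.8 TPM in knockout lines, and of 5 tested 1 was lower, Col1a1. In WT replicate 3 Col1a1 (183.5 CPM), Col3a1 (61.4 CPM) and Pdgfrb (66 CPM) were the highest of all lines. Its Pdgfra (7.25 CPM) and Dcn (0.7 CPM) were not, with the top values in knockout replicate 2 (20 CPM) and knockout replicate 3 (12 CPM). Lum had 4 reads over all WT lines and 0 over all knockout lines. Summed leukocyte markers were 0.69 to 13.9 TPM in WT and 0.49 to 15.2 TPM in knockout lines, mostly from Itgb2. Of the 7 listed leukocyte markers 6 were found by symbol. Of the 2 tested, 0 passed, with Csf1r at -0.96 (adjusted p = 0.62). Endothelial markers summed to at most 0.49 TPM in WT and 1.11 TPM in knockout lines, and none could be tested. Platelet markers summed to 1.00 to 2.30 TPM in WT and 0.92 to 365.3 TPM in knockout lines. That range came from Ppbp, at 206.5 CPM in knockout replicate 2, while Gp9 had 0 reads in WT and 11 in knockout lines and Pf4 had 3 and 2. Ppbp was the 1 platelet marker of 3 tested that was higher (7.94, SE 1.66, adjusted p = 0.013). It did not pass by limma-voom (adjusted p = 0.23), and it had enough reads for a test in 7 of 13 fits with a line left out.

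Fold changes also fell with transcript length. Of 5 equal bins of tested genes by length, the bin of the longest transcripts had a median log2 fold change of -0.18 and that of the shortest 0.23. Knockout replicate 5 stood furthest out, at -0.58 in the longest and 0.68 in the shortest bin, and it also had the lowest Itgav. The 10 genes fell in bins 3 to 5, counted from the shortest. Of all genes in bins 3, 4 and 5, 50.4%, 58.1% and 66.5% had a log2 fold change below 0. In a fit with a length term for each line, Itga7 was at -2.60 (adjusted p = 0.013) and Itgb3 at -4.00 (adjusted p = 0.023), Itgb1 at -0.76 (adjusted p = 0.084) and Itgb5 at -0.82 (adjusted p = 0.065). The median of the 10 was -0.79, and 2 were lower as before.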

How the data were processed

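RNA was measured in 13 lines by paired-end sequencing (150 bases). The authors deposited expected counts per gene made with RSEM after cutadapt trimming, with builds mm10 and GRCm38, per the submitters' processing notes. The authors also deposited TPM for the same genes and lines. Not given in the sources used here are the aligner, annotation, strand use and versions. RSEM divides reads shared by similar genes among them.

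Expected counts were rounded (4.48% of values were not whole), filtered with filterByExpr and scaled by TMM. Groups were compared with edgeR 4.0.16 (quasi-likelihood F test, two-sided, R 4.3.3) over 13058 genes, with Benjamini-Hochberg adjustment over all of them. The SE, an approximate one, is the log2 fold change divided by the root of F. CPM divide counts by the TMM-scaled library size. On simulated data of 12952 genes the same steps recovered 25% of 100 genes changed 2-fold and 90% of 100 changed 4-fold, with 4 false calls. The changed genes were drawn from those with a mean of at least 5 CPM, and no outlying line was simulated. Likeness used log2 CPM with a prior count of 2.

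Alternatives were DESeq2 size factors, library size, DESeq2 1.42.0, limma-voom (limma 3.58.1), limma on log2(TPM + pseudocount), no filter or a stricter filter (above 1 CPM in at least 6 lines), each line left out, the WT lines with a shared title number summed, and WT replicate 3 and knockout replicate 2 both left out. The fit with transcript length was added after seeing the data. Genes named are the 10 members, Mapk8, Mapk9 and Erbb2, called integrin subunits, up to 3 called genes of each list (or the 1 with the smallest p), and the 2 genes most like each called member. Other marker genes, Itga6, Itgb4, Mettl7b and Itga2b, and Gipc1, were named after their values were seen. Members and lists were chosen with earlier results of these data known. Gene positions and promoters are from RefSeq GRCm38.p6, matched by symbol. Overlapping genes were sought in GENCODE M21.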

Additional observations from a re-analysis of the deposited data

Results flagged for a closer look

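Among 20 sets of CPM values (10 genes in each group), 2 held a line far from its group by Dixon's criterion at 95%. For normally distributed values chance gives this in about 1 of 20 sets. The criterion was applied to CPM without a log scale, which can be skewed, so that rate need not hold here. Itga2 in knockout replicate 1 was 64.7 CPM, and the next line was at 25.7 CPM. The gap was 0.613 of the range, over a critical value of 0.568. Itgb3 in WT replicate 3 was 143.8 CPM, and the next line was at 39.2 CPM. The gap was 0.74 of the range, over a critical value of 0.625.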

How the results depend on the processing

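Under 23 other settings Itga7 passed in 23 (log2 fold change -3.05 to -2.18), Itgb3 in 22, Itgb1 and Itgb5 in 5 each, and the other members in 0. With each line left out in turn, 324 to 649 genes were higher, 316 to 592 lower, and 2 to 3 members lower. DESeq2's test gave 1130 genes higher, 977 lower and 4 members lower (65 genes had no adjusted p), and limma-voom 1 member lower. On log2(TPM + 1) 286 genes were higher and 998 lower, and on log2(TPM + 0.1) 322 and 981, with 4 members lower in each. These fits move the median of all genes to -0.19 and -0.23, so relative to it Itgb1 lay at -0.96 and -0.93 and Itgb5 at -0.85 and -0.83. Library size alone gave 459 higher and 579 lower. Signs turned for Itgb6 on TPM (-0.03 and -0.22), for Itga5 without WT replicate 5 or 6 or knockout replicate 5, 6 or 7 (0.02, 0.04, 0.05, 0.01 and 0.03), and for Csf1r without WT replicate 2 (0.74). With each line left out, Itga5 ran from -0.63 to 0.05 and Csf1r from -1.30 to 0.74. The causes were not tested. Of 240 member values under an alternative, 222 kept direction and side of the threshold. No paired analysis was possible because the labels give the lines no shared numbers across groups. In simulation at the depth and fitted spread of these lines, with few genes changed and no outlying line, 25% of 2-fold changes were recovered. That need not be the rate in the real comparison.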

Other observations

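Knockout replicates 5, 6 and 7 had lower values than knockout replicates 1 to 4 for 4 members, with no overlap. Itga2 was 1.08 to 5.64 CPM in the former and 19.2 to 64.7 CPM in the latter. Itga3 was 260.6 to 371.6 CPM against 1104 to 1354 CPM, Itga5 16.5 to 25.9 against 27.7 to 128.2 CPM, and Itgav 83.7 to 186.5 against 205.9 to 300.7 CPM. For Itgb1, Itgb3, Itgb5, Itgb6, Itgb8 and Itga7 the ranges of these lines overlapped. The labels name no group among the knockout lines, the split was seen in the values, and it was not tested. The share of all tested genes that part these lines in the same way was not counted. The 4 members therefore have no background beside them, and the split is not shown to be particular to integrins.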
